A study of Mus musculus with 6 samples.

Results

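Regulatory T cells are CD4 T cells that hold other immune responses in check and are defined by the transcription factor Foxp3. The data describe how such cells of 2 Noc4l genotypes differed 48 h after activation, as the log2 ratio of FPKM + 1 (fragments per kilobase of transcript, scaled to the size of the library, with 1 added to each value) in the library labelled cKO over that in the library labelled Het. A gene entered when its mean over both 48 h libraries was at least 20 FPKM, and segments of T cell receptor and immunoglobulin genes, pseudogenes and 8 neutrophil genes were left out. This gave 5338 genes of 47069 with an Ensembl identifier, 5267 of them protein coding. Of 5397 genes at that level, 33 receptor segments, 22 pseudogenes and 4 neutrophil genes had been left out, and the rest of the 8 did not reach the level. From a wider list of 25 neutrophil markers, 1 was still compared, with a log2 ratio of 0.60, past 1.5-fold. Genes near the limit were Rb1cc1 (mean 20.02 FPKM, log2 ratio -0.16) and Bin3 (20.02, 0.07) inside it, and Map3k14 (19.98, 0.05) and Dbt (19.94, -0.01) outside it.

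The series held 6 mouse libraries. Het cells carried Foxp3Cre with Noc4l+/fl, that is 1 floxed allele, and cKO cells Foxp3Cre with Noc4lfl/fl, so the Cre recombinase was common to both genotypes and was driven by Foxp3, in regulatory T cells. The protocol text gives both genotypes the same allele pair, and the genotype field of each library was followed here. The cells came from lymph nodes and spleen and, after CD4 enrichment, were sorted by CD4, GFP and high CD62L. Dynabeads then activated them over 48 h or 72 h. At 48 h there was 1 library per genotype (Het replicate 1, cKO replicate 2), so no 48 h ratio has a test, and at 72 h there were 2 (Het 1 and 3, cKO 2 and 4). The labels used here give neither the age of the animals nor whether they were pooled, and p-values measure only the spread between these libraries, which may be technical.

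Activation through the antigen receptor and CD28 takes a resting T cell into growth and division. Immediate early transcription factors such as Fos, Jun, Egr1 and the Nr4a receptors come first, then NF-kB targets, then Myc-driven growth with new ribosomes, sterols and fatty acids, and then DNA replication and mitosis. Noc4l is the counterpart of a yeast protein needed to assemble the small ribosomal subunit. When ribosome assembly stalls, free ribosomal proteins can bind Mdm2 and let p53 accumulate, which turns on genes of arrest and cell death.

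Noc4l itself went against the labels. It stood at 99.1 FPKM in the Het library at 48 h and 124 in the library labelled cKO, a log2 ratio of 0.32, or 0.15 corrected for the GC share and length of the transcript. At 72 h it was at 48.8 FPKM in Het 1 and 81.7 in cKO 2, and at 40.8 in Het 3 and 58.1 in cKO 4. The 95% counting interval of the 48 h ratio, from estimated fragment numbers and covering counting error only, was 0.25 to 0.41. All directions below are therefore given for the libraries as labelled, and a single value per gene cannot show the loss of a floxed exon. The lineage markers were present in both 48 h libraries. Foxp3 was at 207 FPKM in Het and 225 in the library labelled cKO, Il2ra (the interleukin 2 receptor alpha chain, CD25) at 1372 and 1142, the inhibitory receptor Ctla4 at 522 and 454, and Ikzf2 (Helios) at 228 and 204. Their log2 ratios were 0.11, -0.26, -0.20 and -0.15.

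Depth was estimated at 28.8 M fragments in the Het library and 22.7 M in the library labelled cKO at 48 h, and at 16.5 to 24.5 M at 72 h. Genes of other cells were uneven. The 25 neutrophil markers summed to 64.1 FPKM in Het at 48 h, with 9 of them at 0, and to 526 in the library labelled cKO, with none at 0. The neutrophil genes Lyz2, Camp and Lcn2 were listed at 0 in Het and stood at 36.3, 19.3 and 19 FPKM in the library labelled cKO. The 25 markers of monocytes, macrophages and dendritic cells summed to 140 FPKM in Het and 203 in the library labelled cKO, the 14 B cell markers to 13 and 38.8, the 13 CD8 T and NK cell markers to 34.6 and 51.9 and the 13 erythroid and platelet markers to 4.59 and 36.6. The 13 T cell identity genes summed to 3545 and 3755 FPKM, and Cd4 stood at 313 and 320. Xist and the Y-linked gene Eif2s3y were both detected in every library, and their ratios changed side between the times. Eif2s3y stood at 48 FPKM in Het and 33.2 in the library labelled cKO at 48 h (-0.52), with ratios of 0.98 and 0.85 at 72 h, and Xist at 76.3 and 89.1 FPKM (0.22), with -0.92 and -0.55 at 72 h. In such bulk samples, fewer cells of a type and less RNA per cell cannot be told apart.

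Most genes differed little between the genotypes at 48 h. The median log2 ratio was 0.01, and from the 5th to the 95th percentile the ratios ran from -0.28 to 0.33. At least 1.5-fold higher in the library labelled cKO were 50 genes (0.937% of those compared), and at least 1.5-fold lower 20 (0.375%). At least 2-fold higher were 10 (0.187%), and 2-fold lower 4 (0.0749%). The SD of the log2 ratios was 0.21 at 48 h, against 0.50 for replicates 1 and 2 at 72 h and 0.37 for replicates 3 and 4. It was 0.37 between the Het libraries at 72 h and 0.55 between those labelled cKO. The 48 h genotype ratios thus spread less than libraries of the same genotype did at 72 h. The 48 h pair was deposited together, however, while replicates 1 and 2 at 72 h were deposited apart from 3 and 4. Genes were also chosen by their level at 48 h. The part of either in these SDs was not tested, so 0.37 and 0.55 are not a measure of noise between replicates at 48 h. A ratio larger in size than both of these same-genotype differences for its gene was found in 763 genes (14.3%), which were not read against the genes past 1.5-fold, since those were chosen by the same ratio. No replicate at 48 h gives the spread at that time.

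**Figure D1:**
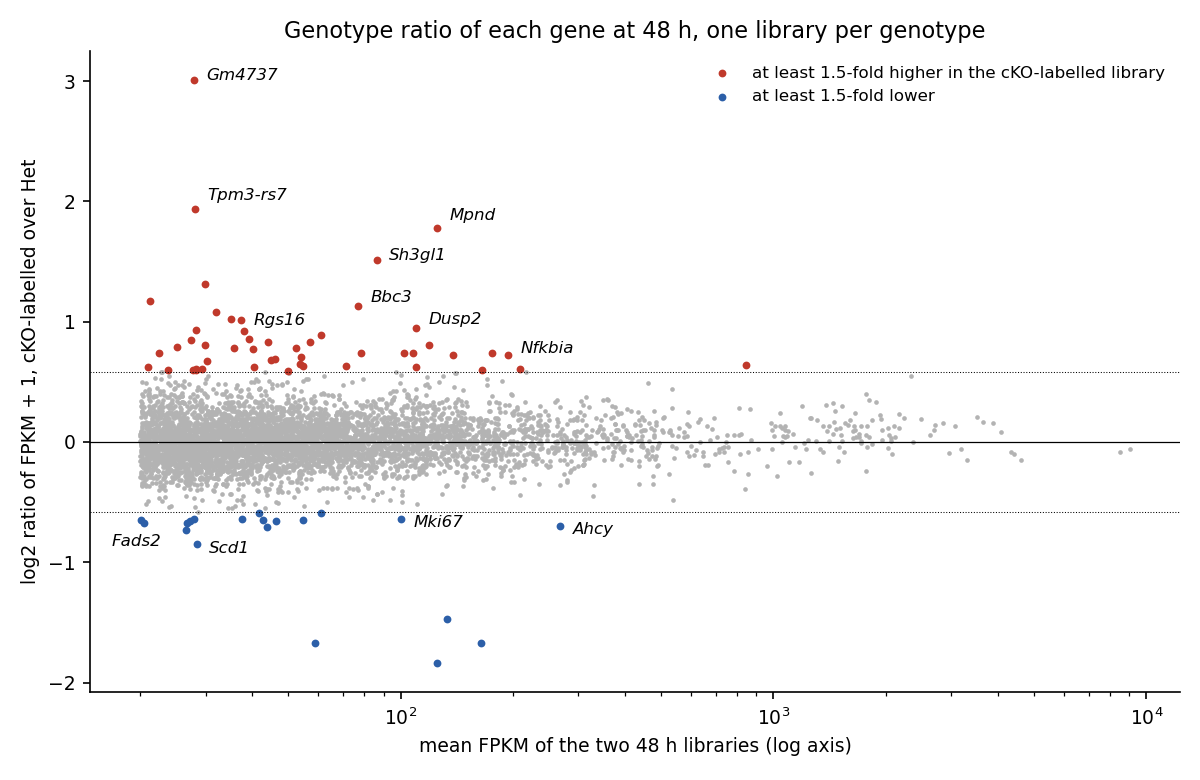
Each point is a gene compared at 48 h; the x axis is its mean FPKM over both libraries (log axis) and the y axis the log2 ratio of FPKM + 1, library labelled cKO over Het. Red points are the 50 genes at least 1.5-fold higher and blue points the 20 at least 1.5-fold lower; the cloud is centred at 0.01.

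The base composition of the transcripts moved with the ratio. Across genes, Spearman's rho between the 48 h ratio and the GC share of the transcript was 0.50, against -0.14 and 0.02 in the 72 h pairs, and with transcript length it was -0.30, against -0.04 and -0.16. All genes share the same libraries, so these are descriptions. Over 5 equal groups of genes, from the lowest GC share to the highest, the median 48 h ratio went from -0.09 through -0.06, -0.01 and 0.05 to 0.15. The 50 higher genes had a median GC share of 57%, the 20 lower ones 48.6% and all genes 50.7%. List medians below are therefore given also with the ratio corrected for GC share and length, that is with the trend over these properties taken out. This correction was chosen after seeing the data. It left 32 genes at least 1.5-fold higher, 29 of them among the 50, and 18 lower, 17 of them among the 20.

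**Figure D2:**
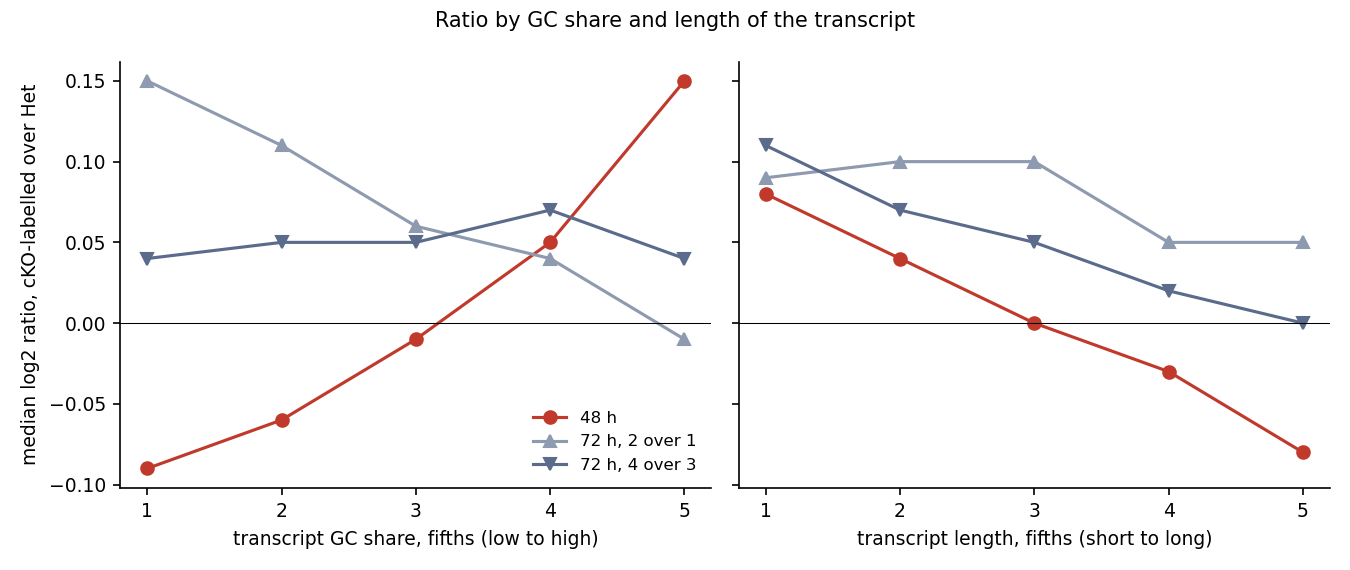
Median log2 ratio (y axis) of 5 equal groups of genes ordered by GC share (left) or length (right) of the transcript (x axis), for the 48 h pair in red and both 72 h pairs in blue greys. The 48 h medians climb from -0.09 to 0.15 with GC share and go from 0.08 to -0.08 with length.

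Mitotic genes stood lower in the library labelled cKO, and the largest differences were in genes of the kinetochore, spindle and condensed chromosome. Of 63 genes compared from a list of 71, 59 had a ratio below 0, against 48.7% of all genes. Their median log2 ratio was -0.26 and the range -0.64 to 0.16, beside 0.01 for all genes. With GC share and length corrected the median was -0.23 and 2 genes were above 0. The list's median GC share was 47.3%. Mki67, which coats mitotic chromosomes and marks dividing cells, stood at 122 FPKM in Het and 78.3 in the library labelled cKO, and it passed 1.5-fold with a ratio of -0.64. The kinetochore motor Cenpe was the other to do so, at 73.5 and 48.4 FPKM (-0.59). Corrected for GC share and length, both stood at -0.48, short of 1.5-fold (0.58 on the log2 scale).

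The kinetochore protein Cenpf stood at 51.7 FPKM in Het and 35 in the library labelled cKO (-0.55, and -0.38 corrected). Aspm, which organises spindle poles, stood at 28.4 and 19.3 (-0.54, and -0.36 corrected). Knl1, a kinetochore scaffold that is not in the list, stood at 24.8 and 15.5 FPKM (-0.65, and -0.46 corrected). In all 5 of these genes the 72 h libraries labelled cKO were also below their Het partners in both pairs, where 25.6% of all genes were. Mki67 had 158 FPKM in Het against 80.4 in replicates 1 and 2, and 157 against 101 in replicates 3 and 4. Among the few mitotic genes above 0 was Gtse1, which restrains p53 in G2 phase, with 34.9 and 39.3 FPKM (0.16). Gtse1 was named after its value was seen. At 72 h the list's medians were -0.67 and -0.40, and 48 of the 63 were lower at an unadjusted p under 0.05 (17.1% of all genes compared passed that level in either direction), none of them at an adjusted p.

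Mitotic promoters often carry 2 short elements, CCAAT, bound by NF-Y, and the CHR element TTTGAA, bound by the MuvB complex. Both strands of the 300 bases around the RefSeq start (250 before, 50 after) were searched for each. Of the 52 mitotic genes with a promoter sequence, 36 (69.2%) held TTTGAA, against 20.2% of 27025 genes, and 41 (78.8%) held CCAAT, against 41.1%. A match in letters is a description and not a site. The promoter of Mki67, the mitotic gene with the lowest ratio, is printed from RefSeq (GRCm38.p6, chr7:135716330-135716629, minus strand) with the 3 CCAAT matches, one of them on the other strand, and the 2 TTTGAA matches in capitals.
Mki67: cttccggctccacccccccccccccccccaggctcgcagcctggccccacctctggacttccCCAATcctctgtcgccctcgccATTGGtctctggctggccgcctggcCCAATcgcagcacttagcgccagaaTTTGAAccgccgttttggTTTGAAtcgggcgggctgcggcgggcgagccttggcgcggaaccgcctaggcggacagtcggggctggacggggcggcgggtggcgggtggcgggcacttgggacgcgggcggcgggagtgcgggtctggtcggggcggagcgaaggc
Among genes of DNA replication and G1/S, 40 of 55 had a ratio below 0 (48.7% of all genes had), with a smaller median of -0.10 (-0.09 corrected). The replicative polymerase subunits Pola1 (38.4 and 29.5 FPKM, -0.37) and Pole (60.6 and 47.5, -0.34) were lowest. At 72 h the list stood at 0.02 in both pairs.

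Targets of p53 stood higher without exception among those compared. All 18 genes of a list of 37 that reached 20 FPKM had a ratio above 0, where 51.3% of all genes did. The median was 0.18, the range 0.03 to 1.13, and the corrected median 0.25 with 16 of 18 above 0. Most were small differences. Bbc3 (Puma, a BH3-only protein that starts apoptosis) stood at 47.9 FPKM in Het and 106 in the library labelled cKO. Its log2 ratio was 1.13, with a 95% counting interval of 1.04 to 1.24, and 0.87 when corrected for GC share and length. At 72 h Het 1 had 31.6 FPKM of it and Het 3 had 50.8, while cKO 2 had 97.4 and cKO 4 had 125. Phlda3, which restrains the kinase Akt, and Psrc1, a spindle protein, followed it.

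Phlda3 stood at 31.5 FPKM in Het and 56.7 in the library labelled cKO (0.83, and 0.60 corrected). Psrc1 stood at 40.8 and 67.2 (0.71, and 0.61 corrected). The CDK inhibitor Cdkn1a (p21) stood at 98.2 and 137 FPKM (0.48, and 0.43 corrected). For these 3 genes the 72 h ratios were larger, at 2.03 and 1.96, 1.97 and 2.02, and 1.01 and 1.41. The difference between times is tested by the interaction term of genotype and time. It gave -1.17 ± 0.21 (SE) for Phlda3 and -1.29 ± 0.21 for Psrc1, and neither passed. This limma fit takes the lone 48 h libraries to vary like those at 72 h. On simulated data it recovered 0% of genes changed by 1 or by 2 on the log2 scale, so not passing decides nothing. Mdm2, the ubiquitin ligase that p53 induces and that degrades it, differed little, with 57.5 and 64.9 FPKM (0.17). The pore-forming Bax stood at 245 and 279 FPKM (0.19, and -0.02 corrected). Mdm2 and Bax were named after their values were seen. Of the 18, 15 were higher at 72 h at an unadjusted p under 0.05 (17.1% of all genes compared passed it in either direction), and none passed an adjusted p. The list's 72 h medians were 1.04 and 0.68.

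**Figure D3:**
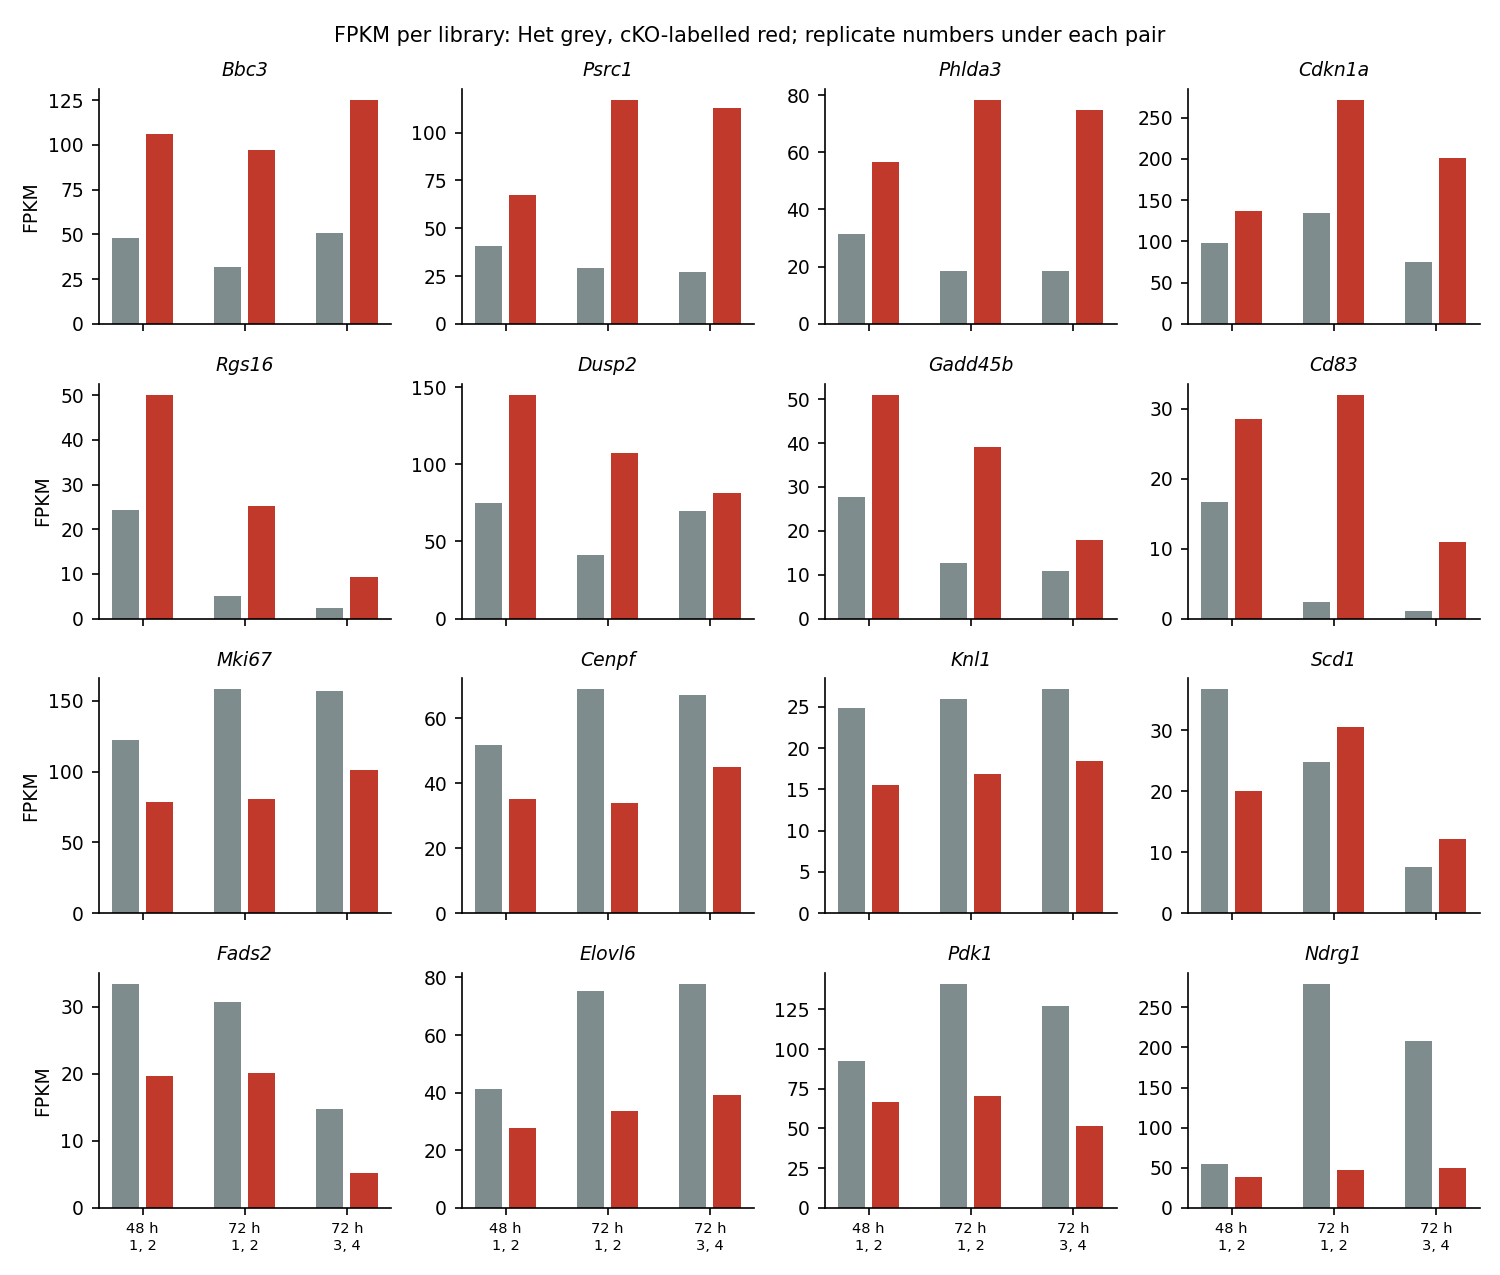
Bars are the FPKM (y axis, from 0) of 16 genes in each of the 6 libraries, Het in grey and cKO-labelled in red, in the 48 h pair and the 72 h pairs of replicates 1 and 2 and of replicates 3 and 4 (x axis). Bbc3, Psrc1, Phlda3, Cdkn1a, Rgs16, Dusp2, Gadd45b and Cd83 have the taller red bar in every pair, Mki67, Cenpf, Knl1, Fads2, Elovl6, Pdk1 and Ndrg1 the taller grey bar, and Scd1 changes side between 48 h and 72 h.

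T cell activation and early response genes had the highest median of the lists with at least 4 genes, 0.37, with 35 of 40 genes above 0 (51.3% of all genes were) and a range of -0.36 to 1.01. Corrected for GC share and length the median was 0.31, with 36 above 0. At least 1.5-fold higher were 8 of the 40, where 0.937% of all genes were, and none was lower. They were Rgs16, Dusp2, Gadd45b, Ier5, Cd83, Nfkbia, Jun and Nr4a1, of which the last 3 were named after their values were seen. Markers of myeloid cells, which also use many of these genes, moved with them. Those of monocytes, macrophages and dendritic cells summed to 140 and 203 FPKM and those of neutrophils to 64.1 and 526, and their part in this list was not tested.

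Rgs16, which switches off G protein signals, stood at 24.4 FPKM in Het and 50.1 in the library labelled cKO, a ratio of 1.01 before and after correction. The MAP kinase phosphatase Dusp2 stood at 74.7 and 145 FPKM (0.95, and 0.80 corrected). Gadd45b, a stress sensor that activates p38, stood at 27.6 and 51 (0.86, and 0.69 corrected). Another MAP kinase phosphatase, Dusp10, outside the list, stood at 19.1 and 37.3 (0.93). Rgs16, Dusp2 and Dusp10 are induced by activation and dampen it. Ier5, an immediate early gene, stood at 26 and 45.4 FPKM (0.78), and Cd83, a surface molecule of activated lymphocytes and dendritic cells, at 16.6 and 28.5 (0.74). Nr4a1, a nuclear receptor read as a gauge of antigen receptor signal, stood at 131 and 199 FPKM (0.60), Jun at 42.7 and 66.8 (0.63) and Nfkbia, the inhibitor of NF-kB, at 147 and 242 (0.72).

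Several activation genes did not share this direction. The transferrin receptor Tfrc stood at 370 FPKM in Het and 289 in the library labelled cKO (-0.36), and Il2ra at -0.26. The factors Irf4 and Irf8 stood at 79.6 and 81.1 FPKM (0.03) and at 152 and 151 (-0.01). At 72 h Irf4 was at 35.2 FPKM in Het 1 and 97.4 in cKO 2, and at 25 in Het 3 and 66.1 in cKO 4. Irf8 was then at 71.8 FPKM in Het 1 and 395 in cKO 2, and at 35 in Het 3 and 113 in cKO 4. Tfrc, Irf4 and Irf8 were named after their values were seen. The list's 72 h medians were 0.96 and 0.44, with 18 genes higher and none lower at an unadjusted p under 0.05, which 17.1% of all genes compared passed in either direction. The time interaction was under an unadjusted p of 0.05 in 12 of the 40, where 4.44% of all genes compared were, and under an adjusted p in none.

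NF-kB and the serum response factor act on many of these promoters. The NF-kB motif (GGG, 2 bases of any kind, then TTTCC) was found on either strand in 6 of 29 activation genes with a promoter sequence (20.7%), against 1.89% of all genes, and the CArG box of serum response factor in 1 (3.45%), against 1.81%. The promoters of Nfkbia (GRCm38.p6, chr12:55492598-55492897, minus strand) and Dusp5 (chr19:53528895-53529194, plus strand) are shown from RefSeq because they hold these letters, in capitals. In Dusp5 the NF-kB match overlaps the first of 2 CArG boxes, and the second follows directly, so that they form 1 stretch.
Nfkbia: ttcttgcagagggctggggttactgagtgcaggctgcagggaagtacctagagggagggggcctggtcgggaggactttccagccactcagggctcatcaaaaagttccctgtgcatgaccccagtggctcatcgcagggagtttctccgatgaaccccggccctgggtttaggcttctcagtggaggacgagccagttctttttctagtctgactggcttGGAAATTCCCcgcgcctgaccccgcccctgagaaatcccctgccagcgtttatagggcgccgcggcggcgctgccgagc
Dusp5: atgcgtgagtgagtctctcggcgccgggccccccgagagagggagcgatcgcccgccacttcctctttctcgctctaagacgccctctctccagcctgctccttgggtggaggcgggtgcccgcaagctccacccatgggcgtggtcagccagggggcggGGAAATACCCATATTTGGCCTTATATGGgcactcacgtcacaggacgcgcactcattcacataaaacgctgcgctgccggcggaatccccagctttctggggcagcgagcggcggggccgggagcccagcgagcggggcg
Dusp5, a nuclear phosphatase of ERK, stood at 80.9 FPKM in Het and 120 in the library labelled cKO at 48 h (0.56), at 41.5 and 75.6 in replicates 1 and 2 at 72 h and at 39.8 and 90.6 in replicates 3 and 4. Dusp5 and Nfkbia were shown for their promoters and not picked by a rule.

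Genes of sterol and fatty acid synthesis stood lower in the library labelled cKO. Of 31 genes compared, 30 had a ratio below 0, where 48.7% of all genes did, with a median of -0.24 (-0.23 corrected, with 3 above 0). The exception was the mevalonate kinase Mvk, at 21.7 and 24.8 FPKM (0.19), named after its value was seen. The enzymes that desaturate and lengthen fatty acids were lowest. Scd1, the stearoyl-CoA desaturase, stood at 36.7 FPKM in Het and 20 in the library labelled cKO, a ratio of -0.85 with a counting interval of -0.99 to -0.77. The desaturase Fads2 stood at 33.4 and 19.7 FPKM (-0.73), and the elongase Elovl6 at 41.1 and 27.8 (-0.55). Scd1 and Fads2 were the 2 genes of the list that passed 1.5-fold.

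In the sterol branch, Lss, which closes the sterol ring, stood at 26.9 and 18.9 FPKM (-0.49), and Hmgcs1, which makes the precursor of mevalonate, at 60.7 and 45.5 (-0.41). The factors that drive the pathway, Srebf1 (192 and 190 FPKM, -0.01) and Srebf2 (116 and 114, -0.01), hardly differed, and were named for that role after their values were seen. At 72 h the list's median was -0.23 in both pairs. Single genes varied there. Elovl6 was at 75.4 FPKM in Het 1 and 77.7 in Het 3, above the 33.6 of cKO 2 and the 39 of cKO 4, while Scd1 lay the other way, with 24.8 against 30.6 and 7.58 against 12.1. In the interaction term Scd1 stood at -1.30 ± 0.26 (SE, limma adjusted p = 0.744), so a difference between times was not shown.

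The sterol regulatory element was sought as TCACNCCAC on both strands, and 1 of 23 genes with a promoter sequence held it (4.35%), against 1.44% of all genes, while 19 (82.6%) held CCAAT, against 41.1%. Hmgcs1 was the gene with both, and its promoter from RefSeq (GRCm38.p6, chr13:119690101-119690400, plus strand) is printed with the TCACNCCAC match and the 4 CCAAT matches, all on the other strand, in capitals.
Hmgcs1: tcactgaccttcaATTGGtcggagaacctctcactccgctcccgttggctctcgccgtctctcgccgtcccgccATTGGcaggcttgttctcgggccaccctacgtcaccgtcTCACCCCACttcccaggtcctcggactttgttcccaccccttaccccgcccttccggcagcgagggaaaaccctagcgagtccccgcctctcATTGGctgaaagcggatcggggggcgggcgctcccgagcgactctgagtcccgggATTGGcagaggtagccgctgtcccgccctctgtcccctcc

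Glycolysis and hypoxia response genes stood lower as well, 30 of 35 below 0 (48.7% of all genes were), with a median of -0.16 (-0.21 corrected). Pdk1, Bnip3 and Ndrg1 are known targets of the hypoxia-inducible factor. Pdk1, which holds pyruvate back from the mitochondria, stood at 92.3 FPKM in Het and 66.7 in the library labelled cKO (-0.46), the phosphofructokinase Pfkp at 241 and 177 (-0.44), the mitophagy receptor Bnip3 at 148 and 110 (-0.43) and Ndrg1 at 55.2 and 38.5 (-0.51). None passed 1.5-fold at 48 h. At 72 h the difference was larger in values, with medians of -0.63 and -0.82. Ndrg1 was then at 279 FPKM in Het 1 and 208 in Het 3, above the 47.1 of cKO 2 and the 49.9 of cKO 4. At 48 h its Het value was thus near that of the libraries labelled cKO at 72 h. Its interaction term was 1.78 ± 0.30 (SE), which did not pass (limma adjusted p = 0.742).

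Genes for making ribosomes, in which Noc4l takes part, differed by little. The small subunit processome and 40S maturation list had a median of 0.06 (0.08 corrected), with 31 of 43 above 0, where 51.3% of all genes were. The large subunit assembly list had one of 0.03 (0.06 corrected), with 36 of 56 above 0, and RNA polymerase I and III one of 0.04 (0.02 corrected), with 12 of 20. No gene of these 3 lists passed 1.5-fold. In the large subunit list the highest were the assembly factor Rrs1 (32.7 FPKM in Het and 46.8 in the library labelled cKO, 0.50) and Nhp2, a protein of H/ACA snoRNPs (154 and 193, 0.33). In the small subunit list the U3 snoRNP protein Rrp9 (80.2 and 97.2, 0.27) followed Noc4l, and in the polymerase list the subunit Polr1c was highest (102 and 127, 0.31). At 72 h Rrp9 read 37.6, 91.8 and 38.5 FPKM in 3 libraries and 7.89 in cKO 4. For both subunit lists, replicates 1 and 2 at 72 h gave medians of 0.75 and 0.86, and replicates 3 and 4 gave 0.01 and 0.05. The 48 h values thus lay near those of the second of these pairs.

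Cytosolic ribosomal protein genes stood slightly higher, 64 of 80 above 0 (51.3% of all genes were), with a median of 0.09 that went to 0.02 with 51 above 0 after the correction. The largest ratio in the list was that of Rpl23a (104 and 172 FPKM, 0.72). Ribosomal protein genes have many near-identical processed copies, between which reads can be split. Host genes of small nucleolar RNAs stood at 0.09 (0.07 corrected) over 10 genes, led by Snhg15 (45.2 and 64.6 FPKM, 0.51). The snoRNA Snord55 itself stood at 20.2 and 43.8 FPKM (1.08), but such a short gene rested on an estimated 46 and 79 fragments, and its counting interval was 0.58 to 1.68. The mitochondrial gene mt-Atp8 (16.7 and 42.9 FPKM, 1.31) had 98 and 199 fragments and overlaps a neighbour, and mt-Nd3 went the other way (33.2 and 20.4 FPKM, -0.67). The other 7 mitochondrially encoded genes lay between -0.01 and 0.17.

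Stress and survival genes split. Of 16 genes of the integrated stress response, 13 were above 0, where 51.3% of all genes were (median 0.17, 0.09 corrected), among them Ppp1r15a, which ends the response by restoring eIF2 (40.1 and 60.1 FPKM, 0.57), Ddit3 (Chop; 17.9 and 24.6, 0.43) and the asparagine synthetase Asns (20.8 and 27.3, 0.37). Genes of the unfolded protein and heat shock response were mostly below 0, 15 of 22, with a median of -0.11 (-0.04 corrected). The lowest was the heat shock protein Hspa4l (23.4 and 19.3 FPKM, -0.27), followed by the endoplasmic reticulum chaperones Canx (266 and 230, -0.21) and Pdia6 (216 and 187, -0.21). In the BCL2 family the median was 0.22 over 9 genes and 0.06 after correction. Next to Bbc3, its antiapoptotic opponents Bcl2l1 (117 and 161 FPKM, 0.46) and Mcl1 (231 and 294, 0.35) were higher, and Bcl2 lower (63.7 and 51.2, -0.31).

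Genes of the regulatory T cell signature stood at a median of 0.10, with 17 of 29 above 0, where 51.3% of all genes were (0.05 corrected). The highest was Cd83 (0.74), the one gene of the list past 1.5-fold, followed by Lrrc32 (GARP, which presents latent TGF-beta; 124 and 155 FPKM, 0.32), the chemokine receptor Ccr8 (97.6 and 119, 0.28) and Gata3 (166 and 202, 0.28). Among those below were Il2ra, Ctla4 and Ikzf2, as given above. Naive and homing genes had a median of 0.11 (0.09 corrected, 17 of 26 above 0), led by Klf2, the quiescence factor that drives exit receptors. The lymph node homing receptor Ccr7 (113 and 168 FPKM, 0.57) and the antiproliferative genes Btg1 (61.3 and 87.2, 0.50) and Tob1 (24.7 and 33.7, 0.43) followed. Interferon-stimulated genes stood at 0.10 (0.06 corrected, 16 of 24 above 0), against 0.86 and 0.59 in the 72 h pairs, and Irf1, an inducer of many of them, at 97 and 118 FPKM (0.28) against 1.79 and 1.03 at 72 h. The interleukin 2 and STAT5 axis (17 genes, -0.03, and 0.03 corrected), amino acid supply and Myc targets (37, 0.02, and 0.00 corrected), oxidative phosphorylation (75, 0.06, and 0.02), chemokine receptors and integrins (12, 0.08, and 0.05) and CDK inhibitors (4, 0.02, and 0.01) lay near the median of all genes.

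**Figure D4:**
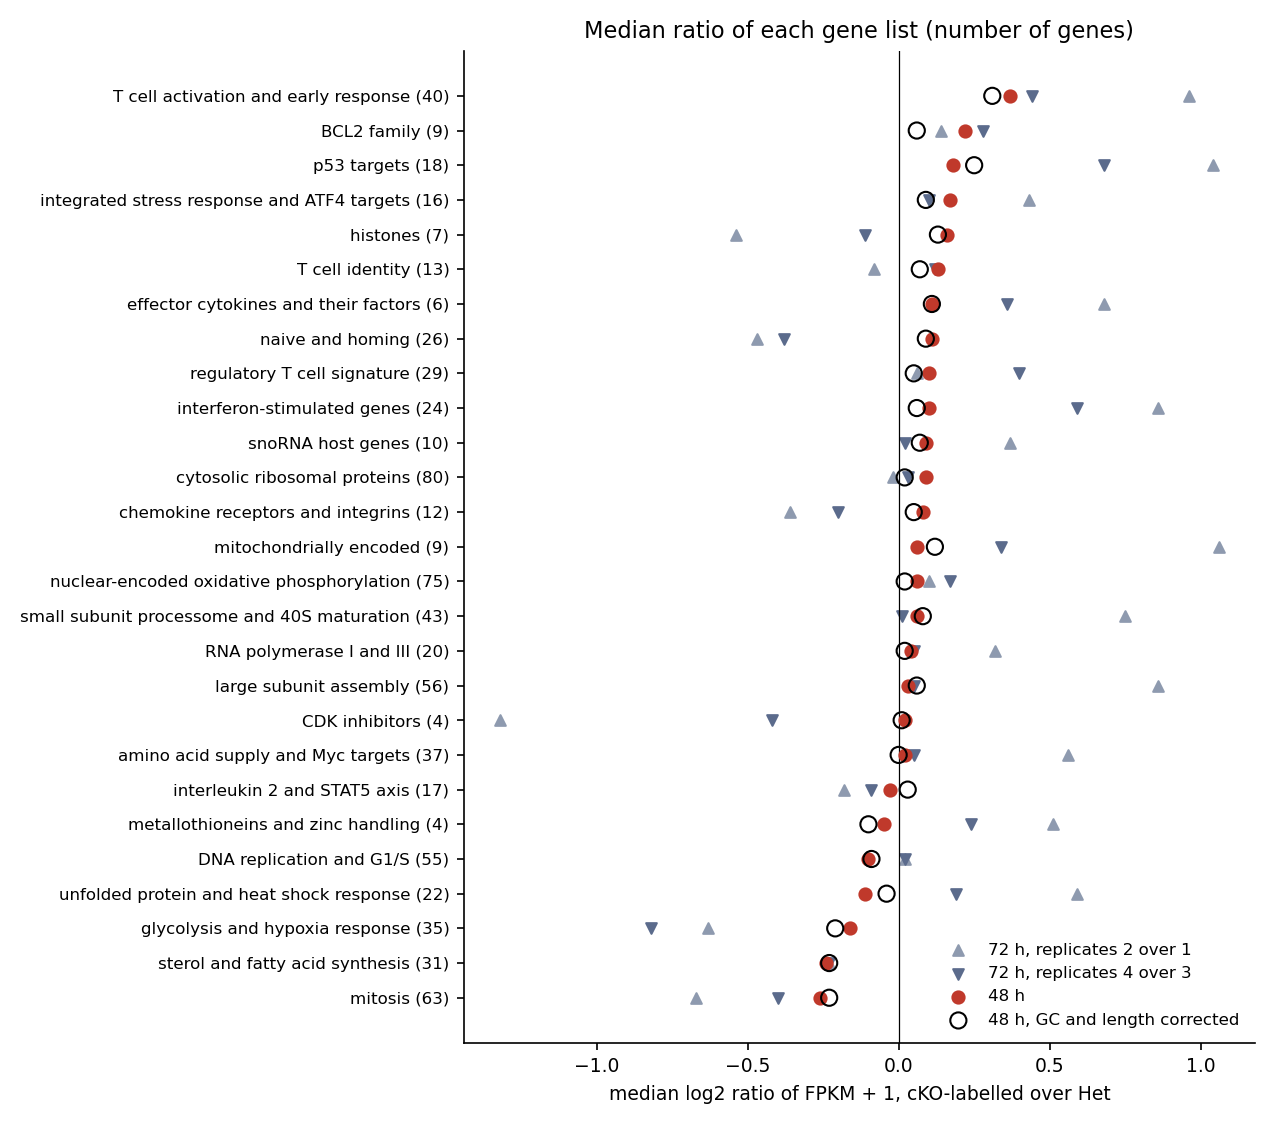
Median log2 ratio (x axis) of the genes of each list with at least 4 genes compared (y axis, number of genes in brackets), at 48 h in red, at 48 h with GC share and length corrected as open circles, and in both 72 h pairs as triangles. Activation genes (0.37) and p53 targets (0.18) lie right of 0 and mitosis (-0.26) and sterol and fatty acid synthesis (-0.24) left of it, by the filled and the open circles.

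The 72 h libraries, which the 48 h ratio did not use, show how many of these differences were seen again. Of the 50 higher genes, 22 were at least 1.5-fold higher in replicates 1 and 2 at 72 h, where 11.9% of all genes were, and 14 in replicates 3 and 4, against 3.9%. Of the 20 lower genes, 7 were lower in the first of these pairs, against 7.31%, and 3 in the second, against 2.87%. Of the 50, 13 (26%) were at least 1.5-fold higher in both 72 h pairs, where 2.53% of all genes were. Of the 20, 3 (15%) were lower in both, against 1.95%. By sign alone, 27 of the 50 were above 0 in both pairs, where 43.5% of all genes were, and 7 of the 20 were below 0 in both, where 25.6% were. Replicates 1 and 2 carry the same numbers at both times, and the labels do not say whether they share an animal. The 25 neutrophil markers summed to 526 FPKM in cKO 2 at 48 h, against 64.1 in Het 1. At 72 h they reached 444 in cKO 2 and 130 in cKO 4, against 111 in Het 1 and 77.4 in Het 3. The part of such cells in these counts was not tested. Across all genes Spearman's rho between the 48 h ratio and the 72 h pairs was 0.16 and 0.21, against 0.54 between these pairs. In limma's test of genotype at 72 h, 0 of 12488 genes (0%) had an adjusted p under 0.05, and 2159 (17.3%) an unadjusted p under 0.05. For the difference between times 0 of 12394 did (0%), and 708 (5.71%) had an unadjusted p under 0.05. Each fit left 1 residual degree of freedom.

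By the smallest of its 3 ratios, Bbc3 led the genes higher in all pairs, followed by Cd74, Rgs16, Phlda3, Dtx1, Cd83, Cbarp and Psrc1 (0.71 in both), Snord55 and B9d1. Dtx1, a ubiquitin ligase of the Notch pathway, stood at 18.2 FPKM in Het and 32.1 in the library labelled cKO at 48 h (0.79). At 72 h it had dropped to 1.36 FPKM in Het 1 and 1.4 in Het 3, with 13.2 in cKO 2 and 5.5 in cKO 4. Cbarp, a regulator of calcium channels, was steady over time, with 38.1 and 66.4 FPKM at 48 h (0.78) and ratios of 0.84 and 0.71 at 72 h. Cd74, which chaperones MHC class II molecules, stood at 22.9 and 47.4 FPKM (1.02) and at 7.8, 147, 3.32 and 27.4 in Het 1, cKO 2, Het 3 and cKO 4 at 72 h. The summed B cell markers were also higher in cKO 2 than in Het 1, at 38.8 against 13 FPKM at 48 h and 131 against 16.9 at 72 h, but not in cKO 4 against Het 3 (10.5 and 11.5), and their part in the Cd74 ratio was not tested. By the same measure Arrb1 led those lower in all pairs, followed by Mki67 and Fads2. The others, whose smallest ratio lay between -0.51 and -0.55, were Cenpf, Elovl6, Arhgap19, Aspm, Knl1, G2e3 and Ndrg1. Arrb1, the adaptor beta-arrestin 1, stood at 52.5 and 33.1 FPKM (-0.65) and at 137 and 127 in Het against 42.5 and 56.5 at 72 h.

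In 4 genes the uncorrected ratio lay at least 1.5-fold one way at 48 h and at least 1.5-fold the other way in both 72 h pairs. They were 3 of the 50 higher genes, where 1.95% of all genes were lower in both 72 h pairs. The other was 1 of the 20 lower genes, where 2.53% of all genes were higher in both. Klf2 stood at 132 FPKM in Het and 220 in the library labelled cKO at 48 h (0.74), and at 165 and 243 against 56.5 and 104 at 72 h. Its 48 h ratio was 0.54 when corrected for GC share and length, short of 1.5-fold (0.58). The Polycomb protein Cbx7 stood at 42.5 and 79.9 FPKM (0.89), and at 87.5 and 111 against 49.3 and 57.5. Ly6a (Sca-1), an interferon-induced surface protein, stood at 67.2 and 42.4 FPKM (-0.65), and at 218 and 186 against 529 and 740. In each of these genes the 72 h groups did not overlap. As they were picked by both 72 h pairs, this largely follows from the choice and adds no support. The sex-linked genes Eif2s3y and Xist also changed side between the times, as given above, and the part of the sex of the animals in these ratios was not tested. The fourth, Mpnd, belongs to the stretch described next. In the interaction term none of the 4 passed, with estimates of 2.57 for Mpnd, 2.11 for Klf2, 1.77 for Cbx7 and -2.28 for Ly6a. On simulated data that fit recovered 0% of genes changed by 1 or by 2 on the log2 scale. Not passing thus decides nothing, and a difference between times was not shown.

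A stretch of neighbouring genes on chromosome 17 stood out in the library labelled cKO at 48 h alone. In annotated order, with genes under a mean of 1 FPKM left out, 9 adjacent protein-coding genes were at least 1.5-fold higher there, the longest such run. Among 10386 genes in order, 234 (2.25%) were at least 1.5-fold higher. The run is Zfp119a, Zfp959, Zfp119b, Ebi3, Yju2, Shd, Stap2, Mpnd and Sh3gl1, of which Yju2, Mpnd and Sh3gl1 had a 48 h mean above 20 FPKM. Mpnd, a putative metalloprotease, stood at 56.2 FPKM in Het and 195 in the library labelled cKO (1.78), against 48 to 92.1 at 72 h. Sh3gl1, an endophilin of endocytosis, stood at 44.5 and 128 FPKM (1.51), against 41.8 to 64.1, and the splicing factor Yju2 at 12.7 and 29.8 (1.17), against 9.64 to 11.8.

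Genes with hardly any transcript elsewhere were part of it. The adaptor Shd stood at 25.7 FPKM in that library and at 0.352 or less in the other 5, and the adaptor Stap2 at 8.42 against 0.862 or less. Ebi3, a subunit of interleukin 35, which regulatory T cells secrete, stood at 6.21 and 11 FPKM (0.73), under the level of the genes compared. Outwards from Sh3gl1 the ratio was 0.52 in Chaf1a, a chromatin assembly factor, and 0.09 in Ubxn6, and on the other side Pot1b stood at -0.16. Over all genes compared, chromosome 17 had a median of 0.07, which with that of chromosome 7 was the highest of the chromosomes (lowest -0.08, chromosome X). These genes were singled out after their values were seen, and strand and annotation of the counting are not given, so reads running from one gene into the next cannot be told apart.

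**Figure D5:**
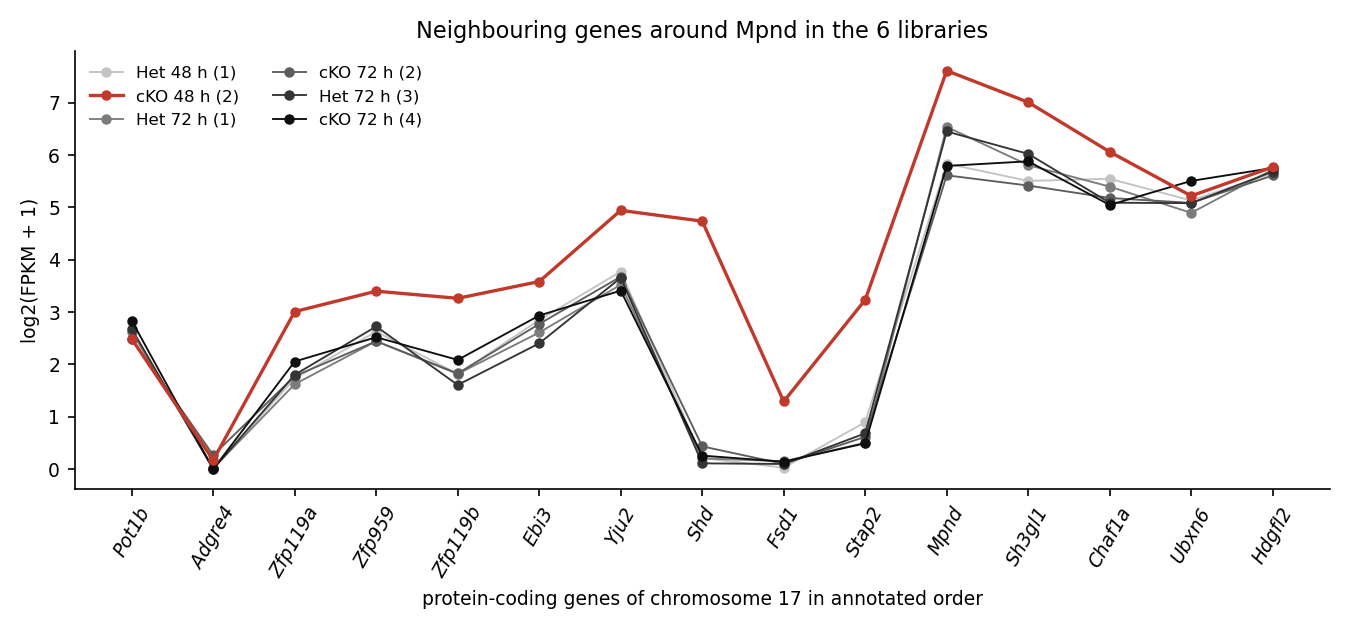
Level of 15 neighbouring protein-coding genes of chromosome 17, in annotated order (x axis), as log2 of FPKM + 1 (y axis) in each of the 6 libraries, 1 line per library. The library labelled cKO at 48 h (red) lies above the other 5 from Zfp119a to Chaf1a and joins them at Pot1b, Ubxn6 and Hdgfl2.

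Among the genes compared, the 2 largest ratios belonged to copies of other genes. Gm4737 stood at 5.36 FPKM in Het and 50.4 in the library labelled cKO (3.01), and at 1.23 or less at 72 h. Its transcript is 99.7% identical over 2083 bases to Ahcy, which hydrolyses S-adenosylhomocysteine and stood at 333 and 204 FPKM (-0.70). Tpm3-rs7 stood at 11 and 45.1 FPKM (1.94), and at 0.716 or less at 72 h, and is 99.1% identical over 2108 bases to the tropomyosin Tpm3 (852 and 720 FPKM). Reads of such pairs cannot be told apart with confidence, so these values are uncertain. At the other end, the 4 genes at least 2-fold lower were predicted genes, Gm42428 (196 and 54.1 FPKM, -1.84), Gm42427 (249 and 77.8, -1.67), Gm8797 (90.2 and 27.7, -1.67) and Gm43305 (196 and 70.3, -1.47).

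Further named genes complete the ends of the ranking. Gnas, the stimulatory G protein alpha subunit, stood at 26 FPKM in Het and 50.1 in the library labelled cKO (0.92), and Scand1 at 19.3 and 35.4 (0.85). At 72 h Gnas was at 17.6 to 23.8 FPKM in all 4 libraries and Scand1 at 21.3 to 28.2, all below the 48 h library labelled cKO. On the lower side, the zinc importer Slc39a10 stood at 54.7 and 33 FPKM (-0.71), the carboxypeptidase Scpep1 at 34.2 and 21.6 (-0.64), Cript, which binds synaptic scaffolds, at 45.9 and 29.2 (-0.64) and Pop1, a subunit of RNase P and MRP, at 34.6 and 22.7 (-0.58). At 72 h each of these 4 genes had the library labelled cKO higher in at least 1 pair. The replication-dependent histone genes Hist1h4i (25.4 and 15.6 FPKM, -0.67) and Hist1h2ap (50.5 and 33.1, -0.59) stood lower. Their family shares near-identical sequences. Variant histones lay the other way, with H2afv at 96.1 and 120 FPKM (0.32) and H2afz at 1470 and 1646 (0.16), and H2afx at 98.6 and 110, whose ratio of 0.16 became -0.05 when corrected for GC share and length.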

How the data were processed

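RNA of 6 mouse regulatory T cell libraries, made with the SMART-Seq v4 low-input kit per the labels' protocols, was sequenced. The submitters' processing notes name Bowtie2 2.2.3, TopHat2 2.0.12, HTSeq 0.6.1 and the build mm9, but the sources used here state neither what each tool did nor which annotation or strand setting applied. The authors deposited FPKM in 2 tables of 47427 and 47347 rows (replicates 1 and 2, and 3 and 4). Rows without an Ensembl identifier were left out, and of 47069 identifiers 46488 matched a symbol. Library sums ran from 624503 to 702855 FPKM, and no rescaling was done.

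To estimate depth, low FPKM values were read as steps of whole fragments. With the mean GENCODE transcript length as gene length, 87.5% to 89.4% of them came within 0.02 of a whole number, against 3.46% to 4.43% with lengths scrambled. The resulting fragment numbers served only for 95% intervals of counting error.

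At 48 h the log2 ratio of FPKM + 1 has no test. The 72 h genotype effect (4 libraries) and the difference between times (6 libraries) were tested on log2(FPKM + 1), which understates changes of low genes, with limma 3.58.1 (R 4.3.3). Both fits had the table as a term, a variance trend, a minimum mean of 1 FPKM and Benjamini-Hochberg adjustment over all genes. On simulated data the 72 h fit recovered 0% of genes changed by 1 on the log2 scale and 63% of those changed by 2, and the interaction fit 0% of both.

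The genes and the 32 lists were chosen with earlier results of these data known. Named genes were Noc4l and 4 lineage markers, the 15 highest and 15 lowest 48 h ratios without predicted genes, the 10 highest and lowest by the smallest of 3 same-direction ratios, and up to 4 genes per list. Some genes are not reported here. Alternatives changed the pseudocount (0.1, 5), fold, minimum level, scaling, table term, variance trend and libraries, and, added later, corrected GC share and length over 20 bins each. Sequences are from RefSeq (GRCm38.p6), not the build that the submitters name (mm9), and copies were matched with blastn 2.17.0. Tables and plots were made in Python 3.11.15 (pandas 2.3.3, numpy 2.4.6, matplotlib 3.10.9).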

Additional observations from a re-analysis of the deposited data

Results flagged for a closer look

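The genotype ratio changed side between the times in 4 genes, by at least 1.5-fold at 48 h and in both 72 h pairs. They were 3 of the 50 higher genes, where 1.95% of all genes were lower in both 72 h pairs. The other was 1 of the 20 lower genes, where 2.53% of all genes were higher in both. At 48 h the log2 ratio was 1.78 for Mpnd, 0.89 for Cbx7, 0.74 for Klf2 and -0.65 for Ly6a. Corrected for GC share and length, these were 1.54, 0.77, 0.54 and -0.68, so that Klf2 fell short of 1.5-fold (0.58). The interaction of genotype and time did not pass for any of them (limma adjusted p = 0.742 each), so a difference between times was not shown. There was 1 library per genotype at 48 h.

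Signal also appeared in genes that the comparison leaves out. The 8 neutrophil genes not compared summed to 439 FPKM in the library labelled cKO at 48 h, against 44 in Het, and at 72 h to 376 in cKO 2 and 75.5 in cKO 4, against 38.5 in Het 1 and 21.5 in Het 3. Ltf alone gave 43.5 of the 44 in Het at 48 h and 75.3 of the 75.5 in cKO 4, where S100a8, S100a9, Lyz2, Camp, Lcn2 and Ngp were listed at 0. Shd was at 25.7 FPKM and Stap2 at 8.42 in the library labelled cKO at 48 h, against 0.157 and 0.862 in Het. The mean of each over both 48 h libraries was under the level of the genes compared.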

How the results depend on the processing

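At least 1.5-fold higher at 48 h were 50 genes, which became 10 at 2-fold, 122 with a mean of at least 5 FPKM, 22 with 50 FPKM and 32 with the GC and length correction, and the 20 lower ones became 4, 42, 8 and, with a pseudocount of 5, 13. The 13 genes higher in both 72 h pairs too became 3 at 2-fold, 35 at 5 FPKM, 4 at 50 FPKM and 8 with a pseudocount of 5, and the 3 lower ones 0, 11 and 1 at the same fold and levels. A larger fold or minimum leaves fewer genes by construction. For the other moves the cause was not tested. Of 127 named genes, 126 kept the direction of their 48 h ratio under quantile normalization, 124 with the GC and length correction and 127 under the other settings run on single genes. The medians of CDK inhibitors and histones changed sign at 5 FPKM, those of CDK inhibitors and of amino acid supply and Myc targets with TPM rescaling, and that of the interleukin 2 and STAT5 axis with the correction. With no filter on low values, 8 genes passed the 72 h limma test, where 0 had. Leaving out 1 library, which needs the table term dropped, gave 0 to 608 genes at 72 h (608 without cKO replicate 4, 223 without cKO replicate 2) and 0 to 18 for the interaction (18 without cKO replicate 2); the lone library left is assumed to vary like the others. The table term already sets Het 1 beside cKO 2 and Het 3 beside cKO 4 at 72 h. Without it 1120 genes had an unadjusted p under 0.05 there, where 2159 had with it. By replicate number, no paired analysis was possible because Het carries numbers 1 and 3 and cKO 2 and 4, so that the genotypes share none, and a block by number in the fit over both times leaves no residual degree of freedom. With 1 library per genotype at 48 h, no setting gives the spread there.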
